A study of Mus musculus with 16 samples.

Results

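The 7 genes followed here are genes that mark atrial muscle or the conduction system of the heart, read in preparations of ventricular cardiomyocytes: Myl4, Myl7, Sln, Gja5, Tbx5, Bmp10 and Hcn4. They were taken by symbol, as the probe sets that the platform annotation assigns to them. No measured value entered that rule, but the genes were chosen with earlier results of these data known. The annotation used here names 7 probe sets for 5 of the 7 genes, out of 17097 genes in all. It names none for Sln or Hcn4, which were not analysed here.

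The question was whether these transcripts vary from animal to animal or by genotype when GPER, the G protein-coupled estrogen receptor, is deleted. RNA of isolated cardiomyocytes was hybridised to 16 arrays, each from a different mouse, in 4 groups of 4, namely GPER KO and intact females and GPER KO and intact males. The labels name the intact mice wild type and give all mice as 15 weeks old. The study's methods give a somewhat greater age. The study describes the deletion as specific to cardiomyocytes, and the promoter that drove Cre is not given in the sources used here.

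The cells were those of the ventricles after collagenase perfusion of the whole heart, strained and spun at low speed, and were not sorted by a marker. In such bulk samples fewer cells of a type and less RNA per cell cannot be told apart. Animal numbers run from 417 to 427 in females and from 430 to 453 in males, so that sex and any step done in the order of the numbers cannot be told apart. Values are log2 signals per probe set, normalised by the authors. A log2 value sets the same probe set side by side between arrays, and levels of different genes were set side by side only as percentiles or places among all probe sets.

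In the adult heart, atrial and ventricular muscle use different light chains of myosin. Myl7 encodes the atrial regulatory light chain and Myl4 the atrial essential light chain, while Myl2 and Myl3 encode their ventricular and slow muscle counterparts. Bmp10 encodes a ligand of the BMP family that adult hearts make chiefly in the right atrium. Tbx5 encodes a T-box transcription factor that is most abundant in the atria and conduction system and is also present in the ventricles. Gja5 encodes connexin 40, the gap junction protein of atrial muscle, Purkinje fibres and arterial endothelium. Sln encodes sarcolipin, an inhibitor of the calcium pump in atrial muscle, and Hcn4 the main pacemaker channel of the sinus node.

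The upstream stretches of Myl4 and Myl7 are shown because these are the genes whose values moved together. Both genes lie on chromosome 11, far apart. Each stretch is the 250 bases before the RefSeq start site in GRCm38.p6, at chr11:104550413-104550662 on the plus strand for Myl4 and chr11:5898783-5899032 on the minus strand for Myl7, and capitals mark motif matches.
Myl4: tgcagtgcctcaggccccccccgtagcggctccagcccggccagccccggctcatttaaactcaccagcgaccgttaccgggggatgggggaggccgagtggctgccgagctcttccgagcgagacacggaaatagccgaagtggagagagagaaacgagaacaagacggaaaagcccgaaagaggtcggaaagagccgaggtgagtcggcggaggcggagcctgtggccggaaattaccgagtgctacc
Myl7: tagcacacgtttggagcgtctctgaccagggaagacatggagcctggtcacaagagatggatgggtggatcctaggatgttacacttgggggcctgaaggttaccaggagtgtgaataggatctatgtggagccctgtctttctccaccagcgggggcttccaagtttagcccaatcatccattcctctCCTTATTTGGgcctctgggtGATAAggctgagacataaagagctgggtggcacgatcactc

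The motifs searched on both strands were AGGTGT, the core of T-box sites, GATAA, the core of GATA factor sites, the CArG box of serum response factor and the MEF2 box. The Myl7 stretch holds the CArG box CCTTATTTGG at 61 to 52 bases before the start and 1 GATAA at 41 to 37 bases before it, and none of the motifs overlap. The start that the table uses for Myl4 lies inside the gene's outer bounds, chr11:104546017-104587215, so the stretch before the outermost start is not covered here. The Myl4 stretch shown holds none of the 4 motifs, and neither does that of Gja5. The Bmp10 stretch holds 2 GATAA, and that of Hcn4 1 AGGTGT on the minus strand. Of 32851 windows of the same length, 1.47% hold a CArG box, 22.6% GATAA, 11.8% AGGTGT and 2.92% a MEF2 box. No upstream stretch is given for Tbx5 or Sln in the table used.

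The arrays were of similar scale, with medians of 3.47 to 3.51, and no pair held identical values. Pairs of arrays correlated at 0.982 to 0.997 over all probe sets. Gper1, the deleted gene, was at 2.66 to 2.97 in female GPER KO and 2.76 to 3.11 in female intact mice, and at 2.72 to 2.86 in male GPER KO and 2.64 to 2.93 in male intact mice. These values overlap and are near the median of 2.40 of 23 control probe sets for nonspecific signal, so this probe set does not check the genotype labels. Whether it lies in the deleted part is not given in the sources used here. The ventricular genes Myl2 and Myl3 lay above the 99.9 percentile of probe sets, Myl2 between 12.88 and 13.02 on every array. In females, GPER KO and intact mice differed at 48 of 17097 genes (21 higher in GPER KO), which is 0.281%, with an adjusted p under 0.05. In males they differed at 106 genes (87 higher), or 0.620%, and over both sexes at 233 (141 higher), or 1.36%. The female intact arrays 421 and 422 were singled out as standing apart in earlier results, which are not given here. Without them 10 genes differed in females, in a fit that holds fewer arrays. With any 1 array left out, 20 to 159 genes differed in females and 53 to 120 in males.

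Myl4 varied widely between mice of the same group. Its main probe set (1422580_PM_at) was at 6.15, 8.78, 7.52 and 6.85 in female GPER KO mice 417, 419, 426 and 427, against 8.39, 9.24, 8.88 and 7.22 in female intact mice 418, 421, 422 and 425. In males it was at 10.04, 9.74, 9.13 and 7.83 in GPER KO mice 431, 432, 444 and 451, against 9.22, 6.82, 7.75 and 8.29 in intact mice 430, 433, 452 and 453. Each group held both high and low arrays, and GPER KO and intact mice overlapped in both sexes.

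The lowest array, female GPER KO 417, and the highest, male GPER KO 431, were both of GPER KO mice and were 14.8-fold apart. Group means were 7.32 ± 1.12 in female GPER KO and 8.43 ± 0.88 in female intact mice, and 9.18 ± 0.98 in male GPER KO and 8.02 ± 1.0 in male intact mice (SD, n = 4 each). The GPER KO minus intact difference was -1.11 in females (95% interval -2.41 to 0.19, adjusted p = 0.475 by limma) and 1.16 in males (-0.14 to 2.46, adjusted p = 0.567). Neither passed the threshold. The exact permutation test gave p = 0.200 in females and 0.171 in males, where 0.0286 is the smallest it can give with 4 against 4.

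**Figure D1:**
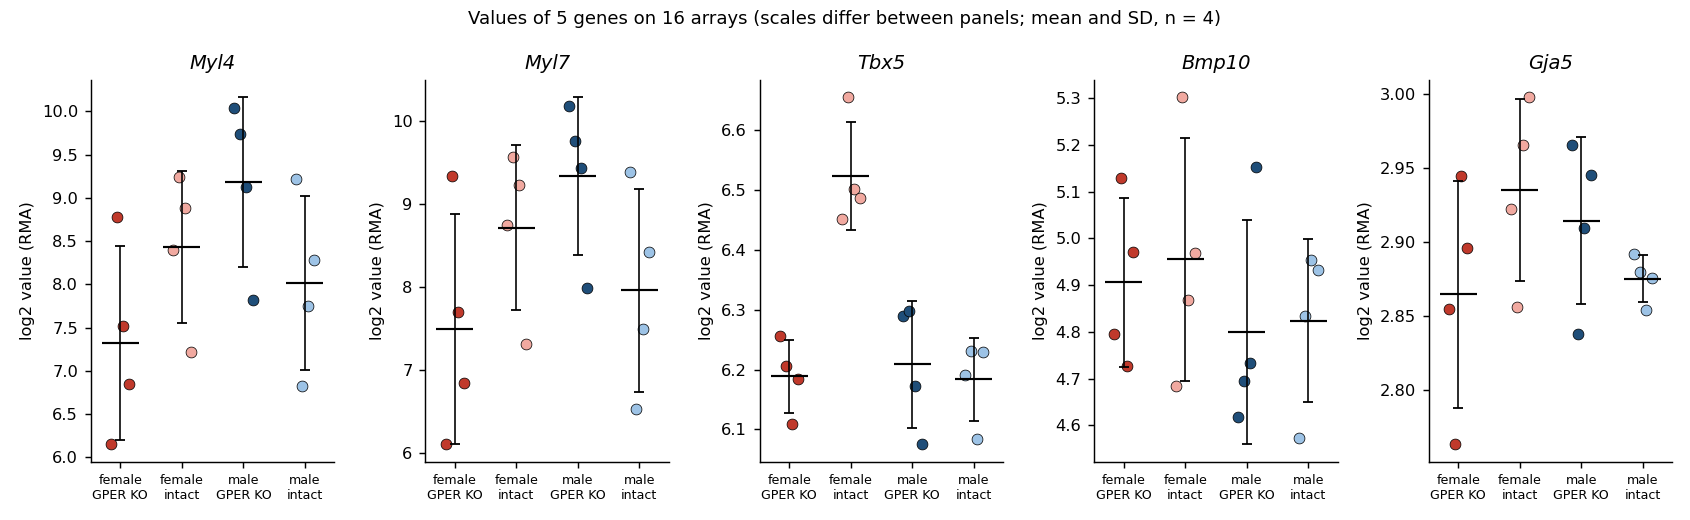
Log2 values of Myl4, Myl7, Tbx5, Bmp10 and Gja5 on the 16 arrays by group, with GPER KO left of intact within each sex. Each point is an array, the bar is the group mean and the whiskers are 1 SD (n = 4). The scales differ: Myl4 and Myl7 span 3.89 and 4.07 log2 units with overlapping groups, while Tbx5 spans 0.58 with all 4 female intact arrays above the others.

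Myl7 gave nearly the same order of arrays. It was at 6.10, 9.33, 7.69 and 6.85 in female GPER KO mice 417, 419, 426 and 427, against 8.75, 9.57, 9.23 and 7.31 in female intact mice 418, 421, 422 and 425. In males it was at 10.17, 9.76, 9.43 and 7.99 in GPER KO mice 431, 432, 444 and 451, against 9.38, 6.54, 7.50 and 8.43 in intact mice 430, 433, 452 and 453. The same female GPER KO mouse was lowest and the same male GPER KO mouse highest, 16.8-fold apart, and the genotypes again overlapped.

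The GPER KO minus intact difference of Myl7 was -1.22 in females (95% interval -2.71 to 0.28, adjusted p = 0.503), and it was 1.38 in males (-0.12 to 2.87, adjusted p = 0.548). Over both sexes it was 0.08 (-0.98 to 1.14, adjusted p = 0.982), and that of Myl4 was 0.03 (-0.89 to 0.95, adjusted p = 0.992). These intervals are wide and include 0 for both genes in each sex.

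The sign of the difference ran opposite ways in the sexes for both light chains. The male minus female difference of the GPER KO effect was 2.27 for Myl4 (95% interval 0.43 to 4.11, unadjusted p = 0.0185) and 2.59 for Myl7 (0.48 to 4.71, unadjusted p = 0.0194), and both had an adjusted p of 0.426 by limma. Of all genes tested, 0 passed that test (0.00%), with 1875 at an unadjusted p under 0.05 and a smallest adjusted p of 0.322.

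The spread of both genes between mice of the same group was among the widest on the array. The SD within groups was 1.15 for Myl7, rank 2 of 17097 genes, and 0.9996 for Myl4, rank 8. Bmp10 had an SD of 0.22 (rank 1554), Tbx5 of 0.08 (rank 13483) and Gja5 of 0.06 (rank 16485). None of these 3 ranked near the light chains.

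Across the 16 mice Myl4 and Myl7 moved nearly as a single measure. Pearson's r was 0.989 and Spearman's rho 0.991 (each p = 1e-05 by permutation, the smallest 100000 resamples can give, adjusted p = 0.0001 over 10 pairs of genes). Without female GPER KO 417 and male GPER KO 431, the arrays farthest from the Myl4 median, r was 0.984. With each group's mean removed it was 0.992. It was 0.993 within GPER KO mice and 0.989 within intact mice (exact permutation p = 4.96e-05 each, n = 8), and 0.998 within females and 0.992 within males (exact permutation p = 9.92e-05 each, n = 8). Myl7 changed by 1.10 log2 units for each log2 unit of Myl4.

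**Figure D2:**
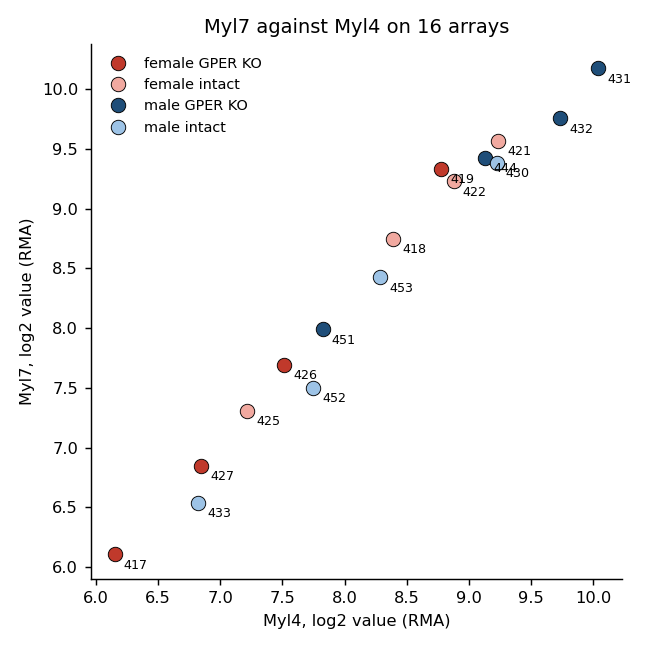
Myl7 against Myl4, both as log2 values, with 1 point for each of the 16 arrays, coloured by group and marked with the animal number. The points lie along a single line (r = 0.989) from female GPER KO 417 at the bottom left to male GPER KO 431 at the top right, and no group keeps to a region of its own.

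The order of the mice by Myl7 mixed the groups. The 4 highest were male GPER KO 431 and 432, female intact 421 and male GPER KO 444, and the 4 lowest were female intact 425, female GPER KO 427, male intact 433 and female GPER KO 417. By Myl4 the same 2 mice led and the same 4 mice were last. Male GPER KO 451, in contrast to the other male GPER KO mice, was the 10th of 16 by both genes.

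The remaining 9 pairs of genes had r between -0.27 and 0.29, with an adjusted p of 0.701 or more. Myl7 correlated with Tbx5 at 0.29, with Gja5 at -0.05 and with Bmp10 at -0.14. In males alone Bmp10 correlated with Myl4 at -0.71 (n = 8, exact permutation p = 0.056, adjusted p = 0.212 over 10 pairs) and in females at 0.45 (n = 8, exact permutation p = 0.254). A common movement of Bmp10, Gja5 and Tbx5 with the atrial light chains was not detectable with 16 arrays. The values of these genes lie within 1.84 to 6.97, the range of the means of the control probe sets for nonspecific signal. The median of those means is 2.40, and Tbx5 was at the 85.8 and Bmp10 at the 73.3 percentile of probe sets. Within the same range lie Dkk3, Nr2f2, Tbx2 and Cacna1h, described below, and the lowest arrays of Myl4 (6.15) and Myl7 (6.10). Whether these probe sets follow their transcripts was not tested.

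Myl4 has a second probe set (1457126_PM_at), which did not follow the first. It lay between 4.35 and 4.47 in female GPER KO and 4.18 and 4.60 in female intact mice, and between 4.28 and 4.71 in male GPER KO and 4.28 and 4.54 in male intact mice. Its whole range was 0.53, against 3.89 for the main probe set, and the r between them was 0.26 over 16 arrays. The genotype difference of Myl4 thus rests on the main probe set, whose course Myl7 shares.

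Bmp10, the ligand, was at 4.80, 5.13, 4.73 and 4.97 in female GPER KO mice 417, 419, 426 and 427, against 4.68, 5.30, 4.87 and 4.97 in female intact mice 418, 421, 422 and 425. In male GPER KO mice 431, 432, 444 and 451 it was at 4.62, 4.69, 4.73 and 5.15, against 4.57, 4.83, 4.95 and 4.93 in male intact mice 430, 433, 452 and 453. The genotypes overlapped in both sexes, and male GPER KO 451, low for Myl7 among the male GPER KO mice, was the highest male for Bmp10. The difference was -0.05 in females (95% interval -0.34 to 0.24, adjusted p = 0.919) and -0.02 in males (-0.32 to 0.27, adjusted p = 0.975).

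Gja5 stood near the level of nonspecific signal, at the 28.4 percentile of probe sets. It was at 2.76 to 2.94 in female GPER KO and 2.86 to 2.998 in female intact mice, and at 2.84 to 2.97 in male GPER KO and 2.85 to 2.89 in male intact mice. The whole range over 16 arrays was 0.24, and the genotypes overlapped in both sexes. The differences were -0.07 in females (95% interval -0.18 to 0.04, adjusted p = 0.608) and 0.04 in males (-0.07 to 0.15, adjusted p = 0.873). At such a signal a change of the transcript may not be detectable.

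Tbx5, the transcription factor, followed genotype in females. Its main probe set (1425695_PM_at) was at 6.26, 6.21, 6.11 and 6.18 in female GPER KO mice 417, 419, 426 and 427, against 6.45, 6.66, 6.50 and 6.49 in female intact mice 418, 421, 422 and 425. In males it was at 6.29, 6.30, 6.17 and 6.08 in GPER KO mice 431, 432, 444 and 451, against 6.19, 6.23, 6.08 and 6.23 in intact mice 430, 433, 452 and 453. All 4 female intact arrays were above all 12 others, and the other groups overlapped.

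Tbx5 was lower in female GPER KO mice by limma, with a difference of -0.33 (95% interval -0.47 to -0.20, adjusted p = 0.0382). In males the difference was 0.02 (-0.11 to 0.16, adjusted p = 0.940) and over both sexes -0.16 (-0.25 to -0.06, adjusted p = 0.121). The male minus female difference of these effects was 0.36 (0.17 to 0.55, unadjusted p = 0.00102, adjusted p = 0.426). Among intact mice Tbx5 was lower in males than in females by limma, at -0.34 (-0.47 to -0.21, adjusted p = 0.0356), in a comparison that called 98 genes or 0.573%. Tbx5 was the only gene of the 5 that passed the threshold in any of these comparisons.

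The second Tbx5 probe set (1425694_PM_at), a dimmer one, was at 4.03, 4.17, 4.18 and 3.92 in female GPER KO mice 417, 419, 426 and 427, against 4.31, 4.77, 4.40 and 4.24 in female intact mice 418, 421, 422 and 425. Female GPER KO and intact mice did not overlap in either probe set (exact permutation p = 0.0286 each, the smallest possible). In males it lay between 4.20 and 4.34 in GPER KO and 4.01 and 4.43 in intact mice, with a difference of -0.01. Without overlap between GPER KO and intact mice stood 972 genes in females (5.69%) and 1062 in males (6.21%).

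The Tbx5 call was close to the threshold. Its difference in females kept its sign in all 26 other settings, at -0.36 to -0.28, with adjusted p from 0.0253 to 0.343. The call was lost in 12 of them. It was lost without female intact 421 (-0.29, adjusted p = 0.143), without female intact 421 and 422 together (-0.28, adjusted p = 0.343) and with the female arrays fitted alone (adjusted p = 0.133). It was also lost without female intact 422, any 1 of the female GPER KO mice or male intact 430 or 433 (adjusted p = 0.0505 to 0.114), with the mean of both probe sets (0.0665) and with trend and robust settings (0.0812).

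**Figure D3:**
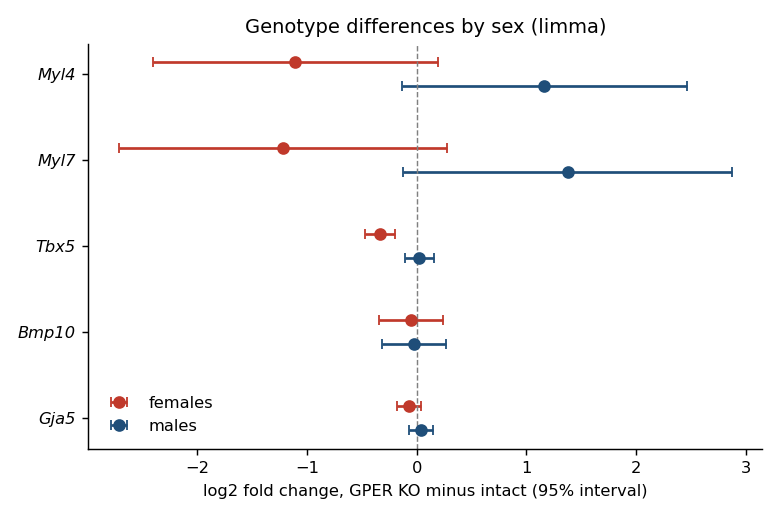
GPER KO minus intact difference in log2 value of each gene in females (upper mark) and males (lower mark), with 95% intervals from limma (n = 4 per group). The intervals of Myl4 and Myl7 reach over 2 log2 units and include 0 in both sexes, and that of Tbx5 in females, -0.47 to -0.20, does not.

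Other genes known for atrial expression were described as a list of 15, of which 10 were measured. In females 2 of the 10 were above and 8 below intact, with a median of -0.13 against -0.02 over all genes. In males 5 were above and 5 below, with a median of 0.01 against 0.01. Of all genes, 41.2% in females and 56.4% in males were above intact. Nppa, which encodes atrial natriuretic peptide and also rises in stressed ventricles, was higher in GPER KO mice of both sexes by limma, with a female difference of 1.18 (adjusted p = 0.0480) and a male difference of 1.41 (adjusted p = 0.00903). Pam, which encodes an amidating enzyme of atrial secretory granules, was higher in male GPER KO mice at 0.49 (adjusted p = 0.0255) and did not pass in females at 0.36 (adjusted p = 0.159). The call of Nppa in females was lost in 19 of 26 other settings (adjusted p 0.0183 to 0.156) and that of Pam in males in 6 of 26 (up to 0.0845), while over both sexes Nppa (1.29, adjusted p = 0.000577) and Pam (0.43, adjusted p = 0.00295) kept theirs in all 25. The mean of the list lay at 6.18 to 6.40 in female GPER KO and 6.15 to 6.45 in female intact mice, and at 6.24 to 6.56 in male GPER KO and 6.21 to 6.36 in male intact mice.

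Nppa was at 10.89, 11.03, 11.59 and 11.39 in female GPER KO mice 417, 419, 426 and 427, against 9.63, 10.52, 10.33 and 9.69 in female intact mice 418, 421, 422 and 425. In males it was at 11.46, 11.37, 11.34 and 11.19 in GPER KO mice 431, 432, 444 and 451, against 10.62, 9.62, 9.48 and 10.01 in intact mice 430, 433, 452 and 453. The genotypes did not overlap in either sex, in contrast to Myl4 and Myl7 on the same arrays. Of all genes, 5.69% in females and 6.21% in males were without overlap. Female GPER KO 417, the mouse with the least Myl4 and Myl7, had more Nppa than every intact mouse.

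Nppa was also set beside Myl7 from mouse to mouse. The r between them was 0.29 over 16 arrays (permutation p = 0.273, adjusted p = 0.391 over the 10 genes of the list), and 0.59 with group means removed (permutation p = 0.0409, adjusted p = 0.0818). It was 0.83 within intact mice (n = 8, exact permutation p = 0.0107, adjusted p = 0.0355) and 0.35 within GPER KO mice (n = 8, exact permutation p = 0.386). By sex it was 0.81 in males (n = 8, exact permutation p = 0.0266, adjusted p = 0.0888) and -0.27 in females (n = 8, exact permutation p = 0.508). The differences between these values of r were not tested.

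Dkk3 and Stard10, both of the atrial list and each read by its brightest probe set, followed the light chains from mouse to mouse. Dkk3 encodes a secreted glycoprotein of the Dickkopf family and Stard10 a lipid transfer protein. Dkk3 was at 3.60, 3.98, 3.83 and 3.76 in female GPER KO mice 417, 419, 426 and 427, against 3.99, 4.43, 4.55 and 3.77 in female intact mice 418, 421, 422 and 425. In males it was at 4.75, 4.72, 4.65 and 4.16 in GPER KO mice 431, 432, 444 and 451, against 4.18, 3.76, 4.01 and 4.13 in intact mice 430, 433, 452 and 453. As with Myl4 and Myl7, female GPER KO 417 was the lowest and male GPER KO 431 the highest array. For Stard10 the lowest array was female GPER KO 427 (6.30) and the highest male GPER KO 431 (7.36).

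The r of Dkk3 with Myl7 was 0.87 (rho 0.91, permutation p = 5e-05, adjusted p = 0.00025 over 10 genes), 0.83 without female GPER KO 417 and male intact 433, and 0.85 with group means removed. It was 0.89 within GPER KO and 0.85 within intact mice. The r of Stard10 with Myl7 was 0.86 (rho 0.86, permutation p = 2e-05, adjusted p = 0.0002), 0.82 without the same arrays and 0.84 with group means removed, and it was 0.92 within GPER KO and 0.80 within intact mice. Neither gene differed by genotype past the threshold (Dkk3 -0.39 in females and 0.55 in males, Stard10 -0.45 and 0.29).

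Nr2f2, which encodes COUP-TFII, a factor of atrial identity that is also made in venous endothelium, had an r with Myl7 of 0.65 (permutation p = 0.0067, adjusted p = 0.0223) and of 0.79 with group means removed. Without female GPER KO 417 and male intact 433 it was 0.70, and its rho of 0.58 had an adjusted p of 0.065. Its r was 0.90 in females and 0.33 in males, a difference that was not tested. Nr2f2 has further probe sets, at the 8.7 to 11.8 percentile of probe sets, whose r with Myl7 was not computed. The other 6 genes of the list, Nr2f1, Kcna5, Kcnj3, Kcnj5, Kcnk3 and Pam, had r between -0.30 and 0.48 with Myl7, with an adjusted p of 0.154 or more. By Pearson's r, 3 of the 10 further atrial genes thus passed with Myl7, with p adjusted over these 10 genes only. The share of all genes that would pass was not computed, so whether 3 of 10 is more than that share cannot be told. Kcnj3 and Kcnj5, which encode subunits of the acetylcholine-gated potassium channel of atria and nodes, were at 0.02 and 0.45.

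**Figure D4:**
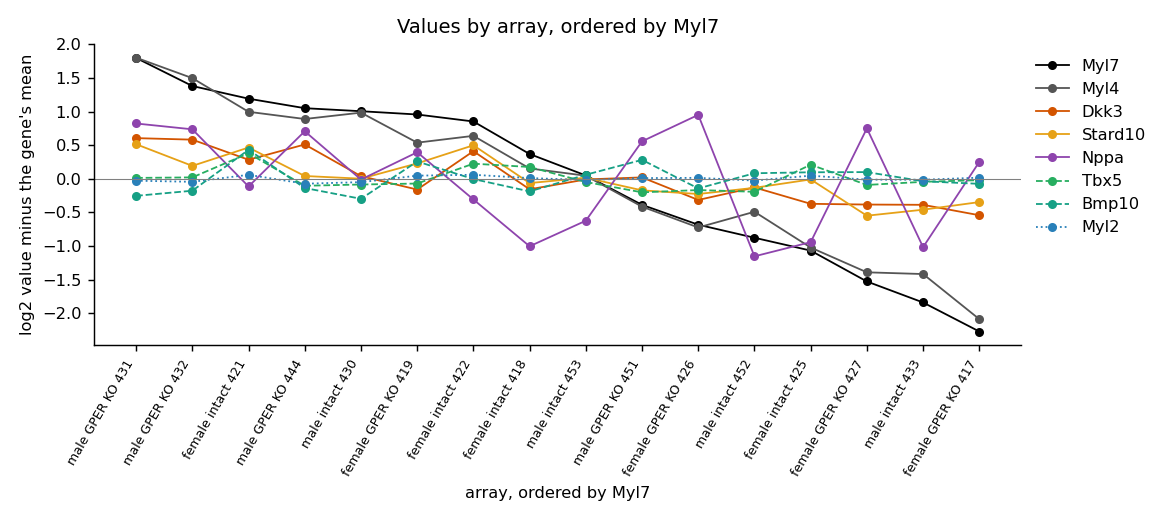
Log2 value minus the gene's own mean over 16 arrays, for Myl7, Myl4, Dkk3, Stard10, Nppa, Tbx5, Bmp10 and Myl2, with arrays ordered from the highest to the lowest Myl7. Myl4 falls with Myl7 along the whole order and Dkk3 and Stard10 fall in smaller steps, while Nppa is high in GPER KO arrays at any place in the order. Myl2 varies little, but it lies near the top of the array's scale, where a change may not show.

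Among 12487 other genes above the 40 percentile of probe sets, the 5 genes described above being left out, the genes closest to Myl4 were Dkk3 (r = 0.90), Stard10 (0.84), Trbv13-2 (0.82), Fgf12 (0.80) and Isca2 (0.79). Those closest to Myl7 were Dkk3 (0.87), Stard10 (0.86), Fgf12 (0.79), Trbv13-2 (0.78) and Ei24 (0.78). Of these other genes 4 had an r over 0.8 with Myl4 and 2 with Myl7, and the median r over them was 0.07 with each. These are the highest of many values and are given as a description over 16 arrays, with no p.

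The genes closest to Tbx5 were others: Slc12a3 (0.86), 4930527J03Rik (0.85), Acp6 (0.84), Mrpl23 (0.83) and Chchd7 (0.82). With group means removed these fell to between 0.29 (Mrpl23) and 0.71 (Slc12a3). The genes closest to Bmp10 were Nrip2 (0.83), Qpctl (0.80), Epha8 (0.80), Foxj1 (0.79) and 4921525D07Rik (0.79). The lists of Tbx5 and Bmp10 share no gene with those of Myl4 and Myl7.

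Among 16 measured genes of the conduction system and pacemaker tissue, out of 19, none passed the threshold in either sex by limma, with 2 in each sex at an unadjusted p under 0.05. Of all genes, 12.6% in females and 10.1% in males were at such a p, and 7043 (41.2%) in females and 9649 (56.4%) in males were above intact. In females 5 of the 16 were above and 11 below intact, and in males 12 were above and 4 below, with medians of -0.01 and 0.05. Cacna1h, which encodes a T-type calcium channel, was nearest to it, at 0.28 in both females (adjusted p = 0.192) and males (adjusted p = 0.148), and over both sexes it was higher in GPER KO at 0.28 (adjusted p = 0.0189). Etv1, a factor of fast conduction tissue, was at -0.25 in females (adjusted p = 0.363), and Hcn2, a pacemaker channel of the same family as Hcn4, at 0.16 in males (adjusted p = 0.485). The highest r with Myl7 in the list was that of Tbx2, a repressor of the atrioventricular canal, at 0.64.

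The ventricular genes Myl2, Myl3, Myh7, Irx4 and Hey2 gave no call in either sex when each gene was read by its brightest probe set, with 0 in females and 1 in males of the 5 at an unadjusted p under 0.05. Hey2 was at -0.16 in females (adjusted p = 0.479) and Irx4 at 0.26 in males (adjusted p = 0.354), and the r of Myl2 with Myl7 was -0.14. Myh7 has a second probe set that did differ, and its values are given among the other observations. Myl2 and Myl3 lie near the top of the array's scale, where a change of the transcript may not show.

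Genes around the other members did not pass the threshold in either sex by limma. None of 7 measured connexins did, with Gja1, the connexin of working muscle, having a female difference of 0.26 (adjusted p = 0.348) and a male difference of 0.25 (adjusted p = 0.438). Of 9 transcription factors that act with Tbx5 none did, with Tbx20 at 0.52 (adjusted p = 0.159) and Mef2d at -0.20 (adjusted p = 0.372) in females. A dimmer probe set of Tbx20 was higher in GPER KO over both sexes by limma, at 0.28 (adjusted p over probe sets = 0.00527), and did not pass in females (0.31, adjusted p = 0.0679) or males (0.24, adjusted p = 0.151) alone. The other 2 Tbx20 probe sets did not pass over both sexes. Of 12 genes of BMP9 and BMP10 signalling none did, with the receptor gene Bmpr2 at 0.55 (adjusted p = 0.293) and the inhibitor gene Smad6 at -0.40 (adjusted p = 0.326) in females. None of 6 genes of the calcium pump and its regulators did, among them Pln, whose protein inhibits the pump as sarcolipin does, with a female difference of 0.12 (adjusted p = 0.585) and a male difference of -0.12 (adjusted p = 0.674). At an unadjusted p under 0.05, 1 to 2 genes of each of these lists stood in each sex, except 0 of the calcium pump list in females, against the 12.6% and 10.1% of all genes given above.

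Markers of other cells were set beside Myl7 array by array. Of 22 measures, 18 of them list means and 4 of array quality, the mean of the other atrial genes was the only one to pass over all 16 arrays (r = 0.91, rho 0.95, permutation p = 2e-05, adjusted p = 0.00044, and 0.90 with group means removed). That mean holds Nr2f2 and also Dkk3 and Stard10, the only 2 of the 12487 other genes with an r over 0.8 with Myl7. The list was chosen with earlier results of these data known, so its p is a description and not an independent test. The mean without these genes was not computed. The r was 0.39 for conduction genes, 0.43 for fibroblast, 0.34 for macrophage, 0.18 for endothelial, 0.35 for smooth muscle and 0.09 for epicardial markers, and -0.38 for cardiomyocyte markers, each with an adjusted p of 0.558 or more. The lowest r was -0.52 for the partners of Tbx5 (adjusted p = 0.444). The 3′ to 5′ signal ratio of Gapdh, a measure of RNA integrity, had an r of 0.32 (adjusted p = 0.558).

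Within 1 sex some of these values were larger, each over 8 arrays. In females the r with Myl7 was -0.83 for cardiomyocyte markers (n = 8, exact permutation p = 0.00799, adjusted p = 0.0439 over 22 measures) and 0.77 for endothelial markers (n = 8, exact permutation p = 0.0133, adjusted p = 0.0489). It was -0.90 there for the partners of Tbx5 (n = 8, exact permutation p = 0.00392, adjusted p = 0.0335) and 0.86 for the genes of BMP9 and BMP10 signalling (n = 8, exact permutation p = 0.000198, adjusted p = 0.00437). Arterial endothelial markers stood at 0.72 (n = 8, exact permutation p = 0.0101, adjusted p = 0.0443). In males these values were -0.05, -0.48, 0.05, -0.45 and -0.42, each with an adjusted p of 0.628 or more by the same exact test. Within GPER KO mice of both sexes the r of endothelial markers was 0.72 (n = 8, exact permutation p = 0.0463, adjusted p = 0.255) and within intact mice -0.23. Of the cardiomyocyte markers, Tnnt2, Tnni3, Actc1 and Pln lie above the 99.9 percentile of probe sets, where a change may not show. Ryr2 and Ttn, the others measured, had wider SDs within groups, at 0.15 and 0.20. That list mean thus may not follow the number of cardiomyocytes. The r of the mean of the other atrial genes with Myl7 stood at 0.89 in females and 0.92 in males. The differences between the sexes in these values were not tested, and the part of these cells in the values of Myl4 and Myl7 was not tested.

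By genotype, all 10 endothelial markers were below intact in both sexes with none called and 1 in each sex at an unadjusted p under 0.05 (12.6% and 10.1% of all genes), at a median of -0.32 in females and -0.33 in males. Of 8 macrophage markers 7 were above intact in each sex (41.2% of all genes in females and 56.4% in males), and 3 in females and 7 in males were at an unadjusted p under 0.05. Cd68 (0.70, adjusted p = 0.0124) and Lyz2 (1.03, adjusted p = 0.0210) were higher in male GPER KO mice. These calls were lost in 4 and 7 of 26 other settings (adjusted p up to 0.0801 and 0.0942) and in none over both sexes. Macrophage means were at 4.81 to 5.04 in female GPER KO and 4.48 to 4.73 in female intact mice, and at 4.94 to 5.59 in male GPER KO and 4.63 to 5.09 in male intact mice. Their part in the values of Nppa, Pam and Tbx5 was not tested. The part of atrial tissue in the values of Myl4, Myl7, Dkk3 and Stard10 was not tested either, since no array was made from atria.

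**Figure D5:**
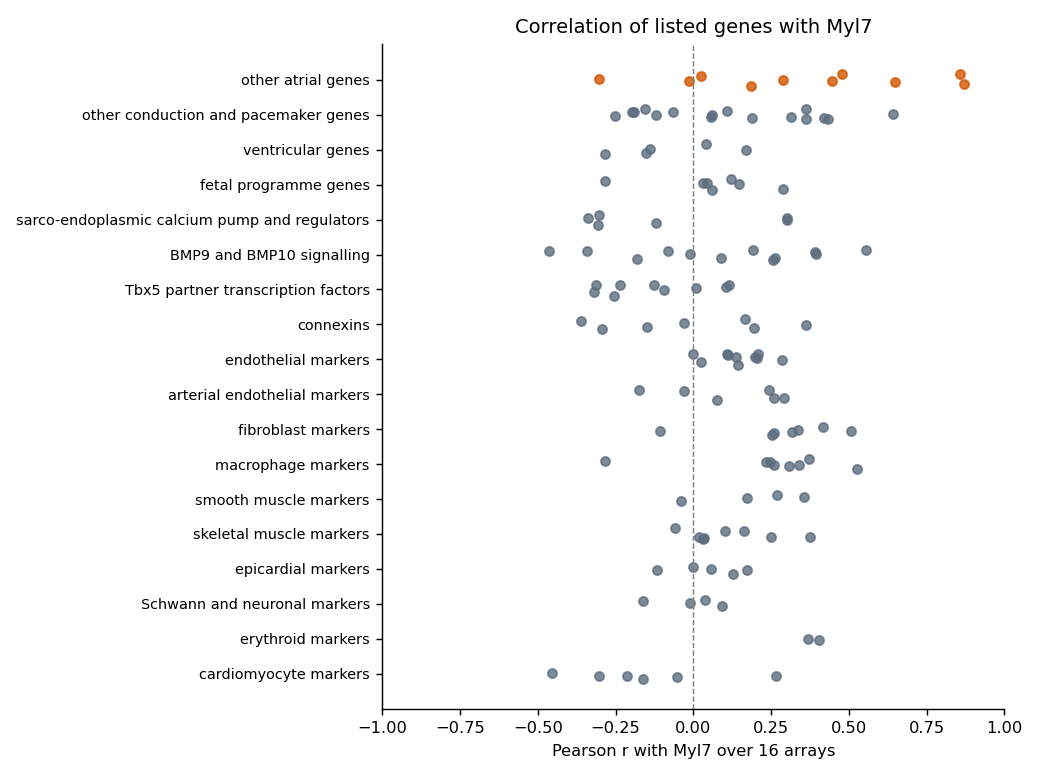
Pearson r of each gene with Myl7 over 16 arrays, by gene list, with 1 point per gene and the other atrial genes in orange. The points at 0.87 and 0.86 are Dkk3 and Stard10, and no gene of another list is above 0.64, the value of Tbx2.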

How the data were processed

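RNA of ventricular cardiomyocytes of 16 mice was read on Affymetrix GeneAtlas MG-430 PM arrays, 1 per mouse. The deposited log2 values per probe set were made by the authors with RMA and Partek, per the labels, with no version given. RMA as usually run corrects background, quantile-normalizes and summarizes probes, which also compresses differences at low signal. No scanner file was used here. The 4 arrays per group limit the precision, and the limma p-values set each difference against the spread between mice of the same group.

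Of 45141 probe sets, 28898 were assigned to 1 gene by the platform annotation, 551 to several and 15692 to none, and 28689 matched the RefSeq table of GRCm38.p6. Each gene was read by its brightest probe set on average. The 17097 genes were tested with limma 3.58.1 in R 4.3.3 on the means of the 4 groups, without a filter, with all arrays in 1 fit and Benjamini-Hochberg adjustment over all genes at 0.05. The test was checked on simulated data. Single values were tested by two-sided exact permutation tests (70 assignments within a sex), and correlations by two-sided permutation (100000 resamples, or exact with 8 arrays) in Python with scipy 1.17.1.

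The genes followed and the gene lists were chosen with earlier results of these data known. Named are the members, up to 4 called genes of each list (with none called, the 2 with the smallest unadjusted p) and the 5 genes closest to each member above the 40 percentile of probe sets. Myl2, Myl3, Nr2f2, Stard10, Dkk3, Tbx2, the potassium channel genes, Nr2f1 and the second Myh7 probe set were named beyond that rule after their values were seen. So were Acta1, Actn1, Tnni1, the cardiomyocyte markers, the dimmer Tbx20 probe set and the further probe sets of Dkk3 and Nr2f2. Of some lists, not every gene that the rule picks is named. Alternatives were the mean or the highest of a gene's probe sets, every probe set, a filter on low values, normalization or centring applied again, array weights, eBayes with trend, arrays of 1 sex, and arrays left out.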

Additional observations from a re-analysis of the deposited data

Results flagged for a closer look

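The second Myl4 probe set (1457126_PM_at) had a value in female intact 418 of 4.18, far below the other female intact arrays at 4.54 to 4.60. The gap is 0.866 of the range of the group, above Dixon's 95% limit for 4 arrays. It is the only such value among 28 groups of 4 arrays, of which chance flags about 1 in 20. The main Myl4 probe set of the same mouse was at 8.39, within the 7.22 to 9.24 of its group.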

How the results depend on the processing

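No gene followed here except Tbx5 in females passed the threshold under any alternative, and Tbx5 in males and over both sexes passed under none. No paired analysis was possible because animal numbers are unique and the groups share none. With 1 array left out in turn, the number of genes called ranged from 20 to 159 in females (48 with all arrays), from 53 to 120 in males (106) and from 162 to 296 over both sexes (233). In females it moved past 1.5 times without any 1 GPER KO mouse or without intact 421 or 422 (20 to 31), and without intact 425 (159). In males it did so without GPER KO 431 or 432 or intact 430, 433 or 452 (53 to 70). Without female intact 421 and 422 together it was 10 in females. With the arrays of 1 sex alone it was 13 in females and 66 in males, and array weights gave 181 in males. All of these fits but the weighted one hold fewer arrays, and the cause was not tested further.

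The genotype differences of Myl4 and Myl7 kept their sign in each sex under every alternative, and Tbx5 in females did so too, but their size moved. With 1 array left out, Myl4 ranged over -1.59 to -0.72 in females and 0.76 to 1.62 in males, and Myl7 over -1.83 to -0.75 in females and 0.90 to 1.85 in males. Without female intact 421 and 422 together Myl4 was at -0.48 and Myl7 at -0.53 in females, and with the mean of its probe sets Myl4 was at -0.58 in females and 0.62 in males. Of differences near 0, some changed sign with 1 array left out. They ranged over -0.21 to 0.25 for Myl4, -0.23 to 0.32 for Myl7, -0.0291 to 0.0012 for Gja5 and -0.0954 to 0.0212 for Bmp10 over both sexes. In single sexes they ranged over -0.14 to 0.0662 for Bmp10 in females, -0.1415 to 0.037 for Bmp10 in males and -0.0085 to 0.0695 for Tbx5 in males. Without female intact 421 and 422 together Bmp10 was at 0.0801 in females and 0.0282 over both sexes. The correlation of Myl4 with Myl7 was between 0.984 and 0.992 under its 4 alternatives. Low signal limits Gja5, and the spread between mice limits Myl4 and Myl7.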

Other observations

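Myh7 encodes the slow myosin heavy chain of the fetal and the stressed ventricle. Its 2 probe sets gave different values, and the dimmer was singled out after its values were seen. The brighter (1448554_PM_s_at, where _s_ marks probes shared by several transcripts) differed by -0.01 in females and -0.05 in males. The dimmer (1448553_PM_at) was at 10.05, 10.12, 10.17 and 10.14 in female GPER KO mice 417, 419, 426 and 427, against 6.98, 6.77, 7.63 and 7.97 in female intact mice 418, 421, 422 and 425. In males it was at 9.68, 9.96, 10.09 and 10.56 in GPER KO mice 431, 432, 444 and 451, against 7.01, 7.70, 7.73 and 6.42 in intact mice 430, 433, 452 and 453. The genotypes did not overlap in either sex, as was so for 5.69% of all genes in females and 6.21% in males.

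Over all probe sets with 1 gene, limma gave this Myh7 probe set a female difference of 2.78 (adjusted p = 0.000254) and a male difference of 2.86 (adjusted p = 0.000177). The list of 7 fetal genes was measured in full, with Myh7 read by its brighter probe set. By limma 2 of the 7 were called in females and 3 in males, all higher in GPER KO. Of all genes, 0.281% were called in females and 0.620% in males. In each sex 5 of the 7 were above and 2 below intact, where 41.2% of all genes in females and 56.4% in males were above. Those called were Nppa, described above, in both sexes, Ankrd1, higher in GPER KO by 1.15 among females (adjusted p = 0.000393) and by 0.72 among males (adjusted p = 0.0120), and Nppb, at 0.82 among females (adjusted p = 0.135) and 1.0 among males (adjusted p = 0.0323). The call of Nppb in males was lost in 8 of 26 other settings (adjusted p up to 0.113) and those of Ankrd1 in none. Acta1 had a female difference of 1.19 (adjusted p = 0.188) and a male difference of 0.82 (adjusted p = 0.406), Actn1 of 0.13 and 0.20, and Tnni1 of -0.17 and -0.08, none of them called. Myl7 on the same arrays had an r of 0.12 with Ankrd1 and 0.03 with Nppb. With group means removed these were 0.49 and -0.10, and neither form was tested.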
